A study of Mus musculus with 9 samples.

Results

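Thbs1, Ecm1, Emilin2, Fn1, Timp2, Fcna and Pmp22 are 7 of the 55322 genes with a deposited expression value in a study of B cells and macrophages of the mouse. They were taken by gene name as a group of macrophage matrix proteins and inhibitors. They were selected on the measured FPKM (read fragments on a gene, scaled for its exon length and for the depth of the library) of all 3 groups of libraries, so their levels and the differences between the groups are given as a description; they were part of the fits across all genes, whose calls are counted for them but are no evidence about them. All cells came from wild-type mice (the study used C57BL/6), whose age the sources used here do not give. CD11b-negative (CD11b-) and CD11b-positive (CD11b+) B cells were sorted from the bone marrow (BM) 48 h after an intraperitoneal injection of LPS at 5 mg/kg, after a depletion that included Gr-1+ and TER119+ cells. Peritoneal macrophages (PMs), sorted as CD11b+F4/80+ cells, came from naive mice. Each group had 3 libraries, and nothing in the labels says that these were separate animals, so p-values measure only the spread between these libraries. PMs and B cells differed in cell type, tissue and LPS treatment at the same time, and these cannot be told apart.

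The extracellular matrix is a network of secreted proteins that holds cells in place and passes signals to them through integrins, syndecans and other receptors. Macrophages of body cavities secrete several of its glycoproteins, together with inhibitors that limit the metalloproteinases that cut it. Fibronectin 1 (Fn1), thrombospondin 1 (Thbs1), extracellular matrix protein 1 (Ecm1) and emilin 2 (Emilin2) are secreted matrix glycoproteins. Timp2 is a tissue inhibitor of metalloproteinases. Ficolin A (Fcna) is a secreted lectin that starts the lectin pathway of complement. Pmp22 encodes a membrane protein with 4 transmembrane segments, known from the myelin of peripheral nerves, and is neither a matrix protein nor an inhibitor. In the gene ontology terms of the deposited table, 6 of the 7 genes, all but Pmp22, carried the term extracellular region, which 1649 of 21823 genes with any term carried. The term extracellular matrix was given to 4 of them (Emilin2, Fn1, Thbs1 and Timp2) and to 252 genes in all, and the term metalloendopeptidase inhibitor activity to Timp2 among 14 genes.

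The promoters of Ecm1 and Fcna, the genes with the highest levels in PMs, are shown with the letters searched for in them, because the 7 genes were high and low in the same groups. RefSeq (GRCm38.p6) gave a promoter, from 250 bases before to 50 bases after the gene's start, for 5 of the 7 genes; Thbs1 and Fn1 were not in the table. Capitals mark matches to the PU.1-type purine box GAGGAA, the AP-1 site TGANTCA, the GATA factor site AGATAA or the core promoter box TATAAA, searched on both strands; no match overlapped another. Where a gene had several starts, the one nearest to its annotated 5′ end was used.
Ecm1, chr3:95739520-95739819, minus strand: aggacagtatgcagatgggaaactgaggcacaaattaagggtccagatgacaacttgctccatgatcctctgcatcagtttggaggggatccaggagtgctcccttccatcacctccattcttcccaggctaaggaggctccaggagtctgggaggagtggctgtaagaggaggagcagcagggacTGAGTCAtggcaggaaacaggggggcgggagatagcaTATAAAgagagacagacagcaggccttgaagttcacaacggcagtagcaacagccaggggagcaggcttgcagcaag
Fcna, chr2:25627925-25628224, minus strand: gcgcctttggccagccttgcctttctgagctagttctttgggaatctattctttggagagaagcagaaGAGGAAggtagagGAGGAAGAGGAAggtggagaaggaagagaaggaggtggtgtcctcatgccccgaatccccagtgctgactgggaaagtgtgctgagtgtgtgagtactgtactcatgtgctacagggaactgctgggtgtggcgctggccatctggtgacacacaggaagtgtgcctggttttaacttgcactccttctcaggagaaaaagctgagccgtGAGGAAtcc
The Ecm1 promoter held TGANTCA at 64 bases and TATAAA at 27 bases before the start. In all 32851 promoters of this length, TGANTCA was present in 7.81% and TATAAA in 13.6%. The Fcna promoter held GAGGAA 4 times, at 182, 169 and 163 bases before and 41 bases after the start, and 28.3% of all promoters held it at least once. None of the 4 motifs was found in these windows of Emilin2, Timp2 and Pmp22, and AGATAA, present in 11.2% of all promoters, was in none of the 5.

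Reads on genes numbered from 18014658 to 35251215 per library. Cell type markers were mostly high where the labels place them: the B-cell list (8 genes) summed to 12447 to 15707 FPKM in the B-cell libraries and to 127 to 239 FPKM in PMs, and Gata6, the transcription factor of resident peritoneal macrophages, lay between 10.5 and 18.5 FPKM in PMs. Itgam, which encodes CD11b, was at 251 to 358 FPKM in PMs but only at 1.92, 1.31 and 1.51 FPKM in the CD11b+ B-cell libraries, above the 0.251 to 0.869 FPKM of the CD11b- libraries without passing the test (log2 difference 0.79, limma adjusted p = 0.50). PM replicate 1 stood apart in its macrophage list (10 genes), which summed to 20715 FPKM against 44010.0 and 55265 FPKM in the other PM libraries, mainly through Lyz2. Neutrophil markers were higher in CD11b+ than in CD11b- libraries: the summed FPKM of 11 genes was 655, 1581 and 217 in the CD11b+ libraries and 1.76 to 3.05 in the CD11b- libraries.

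All 7 genes were abundant in PMs and low in both B-cell groups, as their choice required, with no overlap between PM and B-cell libraries for any of them. Their PM means ran from 173 FPKM (Pmp22) to 1788 FPKM (Ecm1) and summed to 5027 FPKM, and their means in B cells ran from 0.106 to 3.71 FPKM. Together they took 1.95 to 2.47% of the reads of a PM library and 0.00236 to 0.00490% of the reads of a B-cell library. In these bulk libraries, fewer cells of a type and less RNA per cell cannot be told apart.

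**Figure D1:**
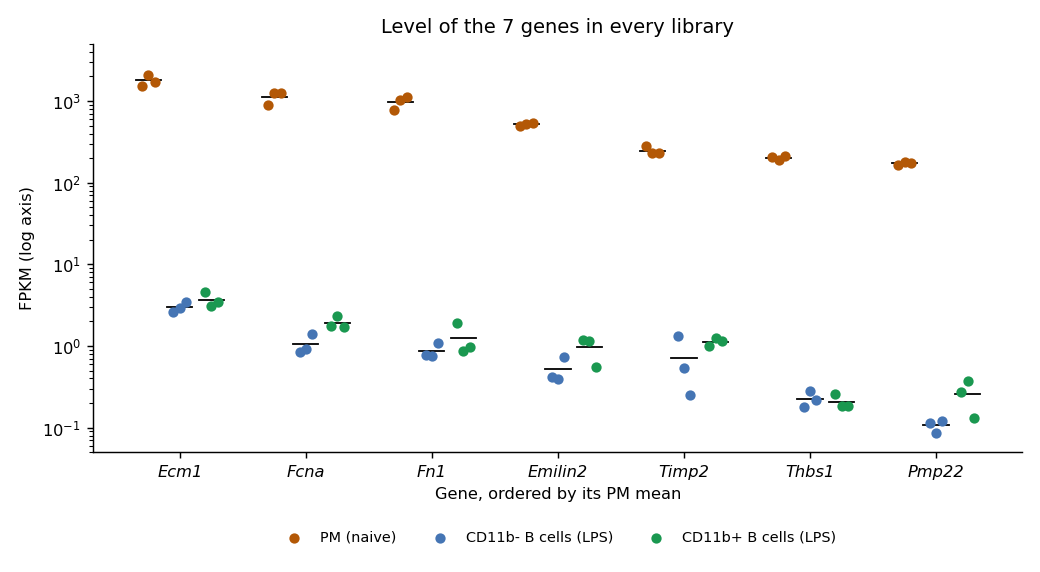
Level of each of the 7 genes in every library, in FPKM on a log axis; each point is 1 library, each bar the mean of 3, and genes are ordered by their PM mean. The PM points lie between 164 and 2108 FPKM and the B-cell points between 0.0852 and 4.52 FPKM.

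Among the matrix glycoproteins, Ecm1 (ENSMUSG00000028108, GRCm38 chr3:95734147-95739569, minus strand), a secreted protein that binds other matrix components, was the highest of the 7 in every group. Its FPKM was 1542, 2108 and 1715 in the PM libraries, a mean of 1788 ± 290.3 (SD, n = 3) and rank 28 among all genes. The CD11b- libraries had 2.59, 2.93 and 3.41 FPKM and the CD11b+ libraries 4.52, 3.11 and 3.50 FPKM. The PM mean was 600.3-fold that of CD11b- B cells and 482-fold that of CD11b+ B cells, and the ranges of the B-cell groups overlapped.

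Fn1 (ENSMUSG00000026193, chr1:71585520-71653200, minus strand) encodes fibronectin, which links integrins on cells to collagen and fibrin. PM libraries held 768, 1019 and 1119 FPKM of it, a mean of 969 ± 181 (SD, n = 3) and rank 52, with replicate 1 the lowest. CD11b- B cells had 0.777, 0.746 and 1.08 FPKM, while CD11b+ B cells had 1.92, 0.863 and 0.964 FPKM. Replicate 1 of the CD11b+ group stood above the other 5 B-cell libraries, and the other libraries of the 2 groups overlapped. With 11685 bases of exon, Fn1 also had the most reads of the 7 genes in each group, with 773375 over the PM libraries, 1012 over the CD11b- libraries and 1321 over the CD11b+ libraries.

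Emilin2 (ENSMUSG00000024053, chr17:71252172-71311978, minus strand) belongs to the emilins, glycoproteins of elastic fibres and vessel walls. Its PM values were close together at 492, 529.8 and 542 FPKM, a mean of 521 ± 26.0 (SD, n = 3). In CD11b- B cells it lay at 0.414, 0.396 and 0.737 FPKM and in CD11b+ B cells at 1.2, 1.15 and 0.546 FPKM. CD11b+ replicates 1 and 2 were above all CD11b- libraries and replicate 3 was not.

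Thbs1 (ENSMUSG00000040152, chr2:118111876-118127133, plus strand), a glycoprotein that binds Cd36 and Cd47 and activates latent TGF-beta, had 206, 187 and 212 FPKM in PMs, a mean of 202 ± 12.8 (SD, n = 3). The CD11b- libraries had 0.178, 0.283 and 0.216 FPKM and the CD11b+ libraries 0.258, 0.182 and 0.182 FPKM. It was the member whose B-cell groups were nearest to each other, with a CD11b+ mean 0.920 times the CD11b- mean, and the only member whose CD11b+ mean was the lower. Thbs1 and Fn1 are also stored in platelets; of the 8 platelet and megakaryocyte markers, Ppbp, Gp9, Gp1bb and Treml1 had no read in any PM library, and Pf4, at 2257 to 3290.0 FPKM, made up nearly all of that list's sum in PMs. Stromal cells are another source of matrix: of 8 stromal markers Col3a1, Dcn and Pdgfrb had no read in PMs, Col1a1 and Col1a2 were at most 0.00893 FPKM, and Cxcl12 was at 4.90 to 6.34 FPKM. The endothelial list (6 genes) summed to at most 0.961 FPKM in a PM library.

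Timp2 (ENSMUSG00000017466, chr11:118301069-118355740, minus strand) inhibits matrix metalloproteinases and, bound to Mmp14, takes part in the activation of Mmp2. It was at 283, 230.1 and 228 FPKM in PMs, a mean of 247 ± 31.2 (SD, n = 3), and replicate 1 was the highest PM library for this gene alone. The CD11b- libraries spread from 0.248 FPKM (replicate 3) over 0.537 FPKM (replicate 2) to 1.32 FPKM (replicate 1), a coefficient of variation of 79.1%. The CD11b+ libraries were close together at 0.996, 1.25 and 1.14 FPKM (coefficient of variation 11.1%), within the range of the CD11b- group. Timp2 kept the largest share of its PM level in B cells, at 0.285% in CD11b- and 0.457% in CD11b+ B cells.

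Fcna (ENSMUSG00000026938, chr2:25624666-25628030, minus strand) had 887, 1249 and 1247 FPKM in PMs, a mean of 1128 ± 208 (SD, n = 3) and rank 43. CD11b- B cells had 0.850, 0.918 and 1.41 FPKM and CD11b+ B cells 1.73, 2.31 and 1.69 FPKM. Every CD11b+ library was above every CD11b- library, with means of 1.91 ± 0.344 and 1.06 ± 0.304 FPKM (SD, n = 3 each).

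Pmp22 (ENSMUSG00000018217, chr11:63128982-63159547, plus strand) was the lowest of the 7 in PMs, at 164, 179 and 175 FPKM with a mean of 173 ± 7.70 (SD, n = 3). CD11b- libraries had 0.115, 0.0852 and 0.119 FPKM, 25 reads in all, and CD11b+ libraries had 0.275, 0.373 and 0.133 FPKM, 53 reads in all. Every CD11b+ library was again above every CD11b- library, but replicate 3 by little. Its PM level was 1623-fold that of CD11b- B cells, the largest ratio among the 7, and 663-fold that of CD11b+ B cells.

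The order Ecm1, Fcna, Fn1, Emilin2, Timp2, Thbs1, Pmp22 held in each of the 3 PM libraries. The neighbours Fcna and Fn1 were the only ones whose ranges over libraries overlapped, although Fcna was above Fn1 in each library. PM replicate 1, which had the lowest macrophage list, was the lowest of the 3 for Ecm1, Fcna, Fn1, Emilin2 and Pmp22 and the highest for Timp2. The coefficient of variation in PMs ran from 4.46% (Pmp22) to 18.7% (Fn1). In B cells Ecm1 was again first and Fcna next by mean, and Fcna and Fn1 overlapped in both groups, as did the neighbours Fn1 and Timp2 and the neighbours Timp2 and Emilin2. Thbs1 lay above Pmp22 in each CD11b- library, and their ranges overlapped in CD11b+ B cells. Between these genes, FPKM compares levels per length of exon.

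Several members lie over other genes, and the sources used here do not say whether the counting used strand. In GENCODE M21 (GRCm38), Fcna is overlapped by Fcnaos on the opposite strand, which was at 0.436, 0.376 and 0.370 FPKM in PMs, CD11b- and CD11b+ B cells (means). Timp2 is overlapped by Cep295nl on the same strand, at 1.08 FPKM in PMs and at most 0.0613 FPKM in B cells (means). Gm29233 (Thbs1), Mir7014 (Ecm1) and Apol7d (Fn1) were at most 0.0406 FPKM in any group, and Gm26561, which overlaps Emilin2, was not analysed here.

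To see how far down the 7 genes lay in B cells, their B-cell means were set against their PM means, beside those of the 497 other genes with a PM mean of at least 100 FPKM. In CD11b- B cells the 7 genes were at 0.0616 to 0.285% of PMs (median 0.0989%), whereas the other genes had a median of 51.4%. Of those 497 genes, 79 (15.9%) were below 1% of PMs, with a median of 0.111%. In CD11b+ B cells the 7 genes were at 0.103 to 0.457% (median 0.170%), the 497 genes had a median of 63.0%, and the 60 (12.1%) below 1% had a median of 0.275%. Nothing is read from the members' low shares, since these values chose them.

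**Figure D2:**
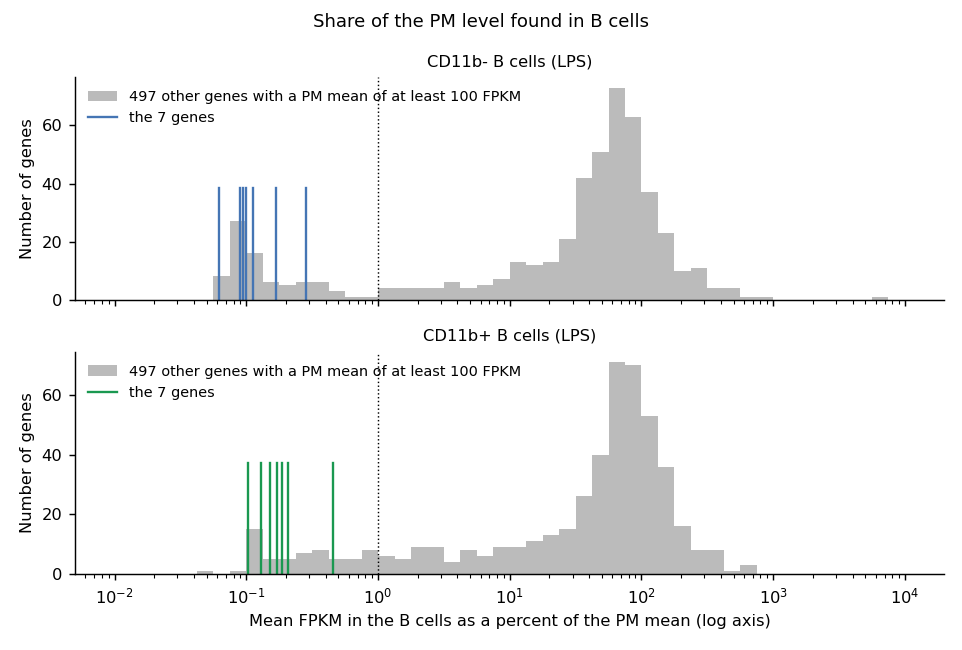
Number of genes (y) by mean FPKM in CD11b- (top) or CD11b+ B cells (bottom) as a percent of the PM mean (x, log axis); grey bars are 497 genes with a PM mean of at least 100 FPKM, coloured lines the 7 genes, and the dotted line marks 1%. The 7 lines sit between 0.0616 and 0.285% in the top panel and between 0.103 and 0.457% in the bottom panel, left of the main peak of grey bars.

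The same shares were computed for the 10 macrophage markers. In CD11b- B cells the median marker was at 0.121% of PMs, with Timd4 at 0.0682%, Lyz2 at 0.0911%, Csf1r at 0.0926% and Gata6 at 0.0980%, and Icam2 at 11.0%. In CD11b+ B cells the median marker was at 0.897%, with Timd4 at 0.181%, Gata6 at 0.201%, Lyz2 at 0.501% and Csf1r at 1.42%.

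The comparison of CD11b+ with CD11b- B cells asks which genes differ between B cells with and without CD11b after LPS; the labels do not say whether both came from the same mice. CD11b+ means were 0.920 (Thbs1), 1.25 (Ecm1), 1.44 (Fn1), 1.61 (Timp2), 1.81 (Fcna), 1.87 (Emilin2) and 2.45 (Pmp22) times the CD11b- means. The differences in log2(FPKM + 1), a scale that understates changes of such low levels, were between -0.02 (SE 0.12) for Thbs1 and 0.50 (SE 0.24) for Fcna. Among the 21778 genes fitted with limma, 0.0689% passed an adjusted p of 0.05 as higher in CD11b+ B cells and 0.0% as lower, and the members called numbered 0 in either direction, also with edgeR and with DESeq2 on the recovered reads; all 7 passed the filter on low values and 0 had an unadjusted p under 0.05 with limma, as 7.68% of all fitted genes had. That number was 1 with all 9 libraries in one fit, without the trend, without CD11b- replicate 1 and without CD11b+ replicate 3. Members with every CD11b+ library above every CD11b- library numbered 2 (Fcna and Pmp22), where 8.63% of the fitted genes did so.

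That count depended on single libraries, and the share over all fitted genes also rose with 1 library left out, to 12.5% or more. The members' count was 5 without CD11b- replicate 3, when Fn1, Ecm1 and Emilin2 joined, and 3 without CD11b- replicate 1 (Timp2 joined), CD11b+ replicate 2 (Ecm1) or CD11b+ replicate 3 (Emilin2). The share over all genes in these cases was 13.1%, 12.5%, 14.01% and 15.96%, in the same order. The ratio for Timp2 was 2.87 without CD11b- replicate 1 and 1.21 without CD11b- replicate 3, against 1.61 with all libraries. Macrophage marker sums were higher in CD11b+ B cells, as were the means of 6 of the 7 members: the sums were 334, 329 and 146 FPKM in CD11b+ replicates 1 to 3 and 97.2 to 125 FPKM in the CD11b- libraries, with 7 of the 10 genes not overlapping and none at 0 in either group. Lyz2 alone gave 261, 240.3 and 65.4 FPKM of the CD11b+ sums; the other 9 genes summed to 72.6, 88.2 and 80.5 FPKM in the CD11b+ libraries and to 66.4 to 82.9 FPKM in the CD11b- libraries. Among the CD11b+ libraries, Emilin2, Pmp22, Fcna and Thbs1 were lowest in replicate 3, as was the sum with Lyz2 but not the sum without it, though Fcna was nearly as high there as in replicate 1 and Thbs1 as in replicate 2. Ecm1 and Fn1 were lowest in replicate 2 and Timp2 in replicate 1. The monocyte list (8 genes) summed to 131 to 166 FPKM in CD11b+ and 86.1 to 131 FPKM in CD11b- libraries, mostly from Ms4a4c, and 5 of its 8 genes had every CD11b+ library above every CD11b- library. The part of these cells in the members' levels was not tested.

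**Figure D3:**
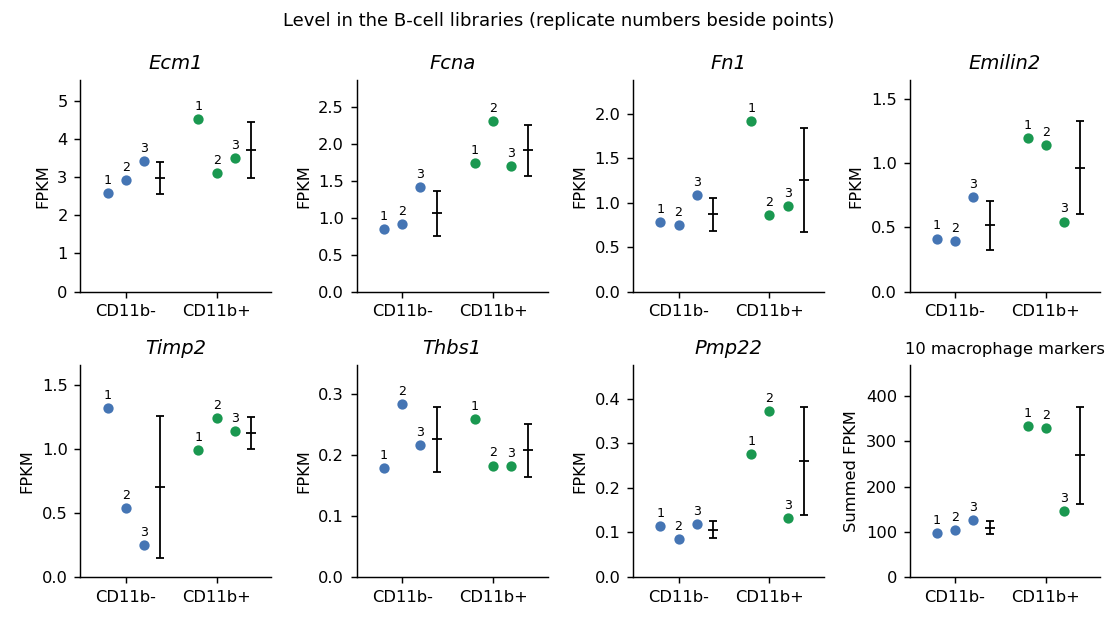
FPKM of each of the 7 genes, and summed FPKM of 10 macrophage markers (last panel), in the 3 CD11b- and 3 CD11b+ B-cell libraries; numbers beside points are replicates, and the bar shows mean and SD. CD11b+ points lie wholly above CD11b- points for Fcna, Pmp22 and the marker sum, and the groups overlap for the other 5 genes.

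Against PMs, the differences in log2(FPKM + 1) were large and close in both B-cell groups, which share the PM libraries. CD11b- B cells minus PMs gave -9.09 (SE 0.20) for Fcna, -9.01 (SE 0.19) for Fn1, -8.81 (SE 0.18) for Ecm1 and -8.43 (SE 0.16) for Emilin2. Timp2 stood at -7.23 (SE 0.25), Pmp22 at -7.29 (SE 0.16) and Thbs1 at -7.37 (SE 0.16). For CD11b+ B cells minus PMs they ran from -8.76 (SE 0.24) for Fn1 to -6.86 (SE 0.18) for Timp2. All 7 members were among the genes called lower, which made up 8.78% of the 22102 genes fitted for CD11b+ B cells and 11.0% of the 20985 genes fitted for CD11b- B cells, and nothing is read from this, since the same values chose the members. Genes called higher than in PMs made up 21.5% and 25.8%.

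Those higher shares depended on scaling. With FPKM as deposited, the median gene was 0.25 (CD11b+) and 0.24 (CD11b-) above PMs in log2(FPKM + 1), and 71.0% and 70.1% of all calls were higher. Rescaling by median ratios moved the median gene by -0.12 and -0.17, and quantile normalization by -0.19 and -0.18. Higher calls were then 53.2% and 50.1% of all calls for CD11b+ and 52.5% and 52.4% for CD11b- B cells. Shifts of this size are small beside the members' differences.

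The genes around the members were taken from 8 lists of 157 genes: relatives of the members, receptors, metalloproteinases, structural matrix, proteoglycans, cross-linking enzymes, TGF-beta activation and lectin complement. Of 94 genes fitted, 10 were higher and 41 lower in CD11b- B cells than in PMs (limma, adjusted p under 0.05), with a median difference of -0.44 against 0.24 over all genes. Of 95 fitted for CD11b+ B cells, 8 were higher and 40 lower, with a median of -0.38 against 0.25. Over all genes, as given above, 11.0% and 8.78% of those fitted were lower. The lists were chosen with earlier results of these data known, so these counts are given as a description.

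**Figure D4:**
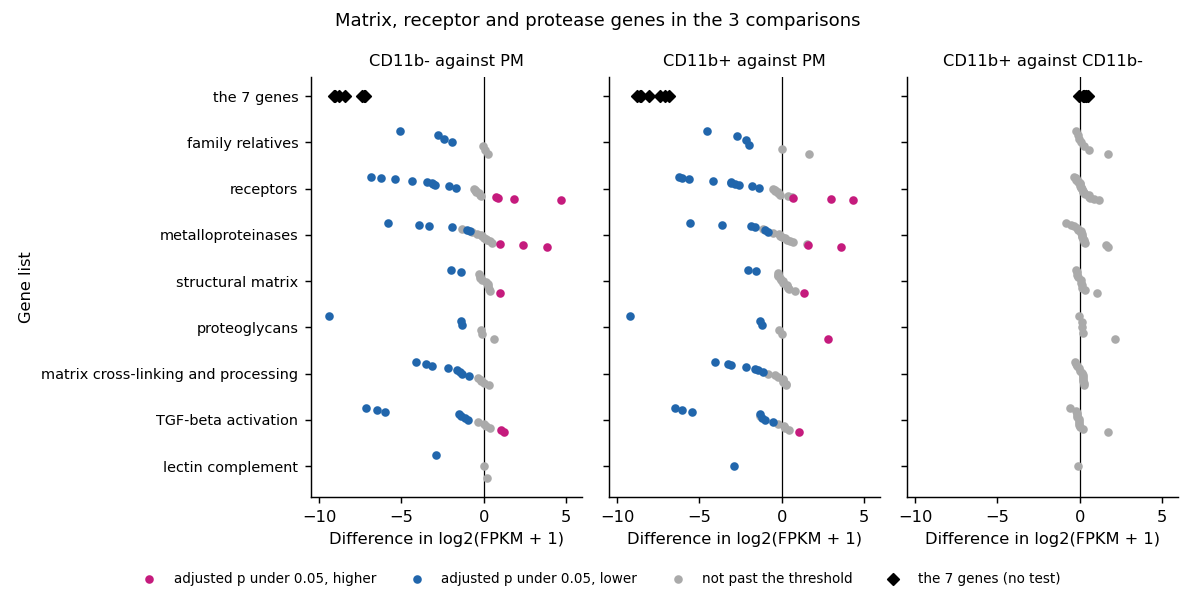
Difference in log2(FPKM + 1) (x) of each fitted gene of the 8 lists (y; the height within a list only separates points) in the 3 comparisons; colours show limma calls at an adjusted p of 0.05, and black diamonds the 7 genes, drawn without their calls. The diamonds lie between -9.09 and -6.86 against PMs, and Prg4, the lowest proteoglycan at -9.41 and -9.19, lies as far down.

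Of the 16 relatives of the members, 7 were fitted for CD11b- and 6 for CD11b+ B cells, and 4 were lower in both B-cell groups than in PMs (Thbs3, Emilin1, Emp1 and Emp3) and none was higher. Of the other Timp genes, Timp1, Timp3 and Timp4 had no read in any PM library, which allows up to 3 reads over the group, and 0 to 9 reads in each B-cell group, so Timp2 was the one member of its family with reads in these PMs. Fcnb, the other mouse ficolin, made by neutrophils and their precursors, had 2 reads in PMs, 2 in CD11b- and 390 in CD11b+ B cells. The CD11b+ libraries had 3.31, 7.42 and 0.0 FPKM, a mean of 3.57 ± 3.72 (SD, n = 3), so that replicate 3 had no read although its neutrophil list summed to 217 FPKM. Fcnb did not pass the test against CD11b- B cells (log2 difference 1.71, limma adjusted p = 0.643) or PMs (1.69, limma adjusted p = 0.10). It passed against PMs without CD11b+ replicate 3 (2.55, limma adjusted p = 0.0058) and with DESeq2 (adjusted p = 0.0043).

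Thbs2 and Thbs4 were at most 0.00500 FPKM in PMs (means), and Comp was at 0.10 FPKM. Thbs3 was at 3.80 ± 2.12 FPKM in PMs (SD, n = 3) and was lower in CD11b- B cells (0.172 FPKM, log2 difference -1.94, limma adjusted p = 0.0045) and CD11b+ B cells (0.133 FPKM, log2 difference -1.99, limma adjusted p = 0.0050). Emilin1 was at 41.7 ± 3.56 FPKM in PMs and was also lower in CD11b- (0.291 FPKM, -5.09, limma adjusted p = 8.3e-06) and CD11b+ B cells (0.890 FPKM, -4.53, limma adjusted p = 1.1e-05). Emilin3, Mmrn1 and Mmrn2 were at 0.0113 FPKM or less in PMs.

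In the family of Pmp22, Emp3 was abundant in PMs at 763 ± 290.2 FPKM (SD, n = 3) and, unlike Pmp22, stayed abundant in B cells at 136 FPKM (CD11b-) and 161 FPKM (CD11b+). It was lower there by limma, at -2.42 (adjusted p = 0.00046) and -2.18 (adjusted p = 0.0011). Emp1 was at 5.94 ± 1.12 FPKM in PMs and had 3 reads in CD11b- and 19 in CD11b+ B cells, both below PMs by limma at -2.78 (adjusted p = 0.00018) and -2.74 (adjusted p = 0.00030). Emp2 and Lim2 had no read in PMs.

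The receptors of the members were unevenly spread. Itgb1, the beta chain of the fibronectin receptors, was at 192 ± 20.5 FPKM in PMs and lower in B cells at 17.6 FPKM (CD11b-, -3.42, limma adjusted p = 4.2e-05) and 26.4 FPKM (CD11b+, -2.85, limma adjusted p = 7.2e-05). Itga5, its partner for fibronectin, was at 10.9 FPKM in PMs and at 0.515 and 0.399 FPKM in CD11b- and CD11b+ B cells, lower by limma at -2.98 (adjusted p = 0.00025) and -3.10 (adjusted p = 0.00025). Itga4 (12.9, 10.8 and 10.9 FPKM in PMs, CD11b- and CD11b+ B cells) and Itgav (3.38, 2.7 and 2.75 FPKM) did not pass the test in any comparison, though DESeq2 called both lower in both B-cell groups, edgeR called Itga4 lower in both, and with either rescaling Itga4 was lower in CD11b- B cells.

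The Thbs1 receptors went in opposite directions. Cd36 was at 99.3 ± 25.6 FPKM in PMs and lower in CD11b- (23.9 FPKM, limma adjusted p = 0.0047) and CD11b+ B cells (31.8 FPKM, limma adjusted p = 0.024), the latter not without PM replicate 2 or 3 (adjusted p = 0.058 and 0.076) or without the filter (0.078). Cd47, the signal that restrains phagocytosis, was higher in B cells, at 84.8 ± 2.98 FPKM (CD11b-, limma adjusted p = 0.0050) and 80.7 ± 8.91 FPKM (CD11b+, limma adjusted p = 0.019) against 49.3 ± 4.41 FPKM in PMs, but with median-ratio scaling the adjusted p was 0.23 and 0.41, and the CD11b+ call was also lost without PM replicate 2 or 3 or CD11b+ replicate 1 or 2 (adjusted p = 0.056 to 0.075) and with quantile normalization (0.070). Itgb3 was called higher in CD11b- B cells (9.41 against 4.55 FPKM, limma adjusted p = 0.042), a call lost without any 1 of the CD11b- libraries (adjusted p = 0.052 to 0.12), without PM replicate 2 or 3 (0.094 and 0.11) and with median-ratio scaling or quantile normalization (0.29 each) or no filter (0.072). Neither edgeR nor DESeq2 called Cd47 in either B-cell group or Itgb3 in CD11b- B cells (adjusted p = 0.20 to 0.47).

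Among the strongest changes of the lists, Sdc3 and Lrp1, a syndecan and an endocytic receptor, were at 167 and 83.2 FPKM in PMs and at 0.121 to 1.25 FPKM in B cells. Both were lower by limma (CD11b- minus PMs -6.82, adjusted p = 3.7e-07, and -6.24, adjusted p = 5.7e-07). Sdc4, a syndecan that binds fibronectin with integrins, went the other way: it was at 3.32 ± 1.94 FPKM in PMs, 103 ± 5.70 FPKM in CD11b- and 79.3 ± 2.03 FPKM in CD11b+ B cells (SD, n = 3 each), higher by limma at 4.70 (adjusted p = 4.5e-05) and 4.33 (adjusted p = 6.1e-05). Hmmr, a hyaluronan-binding protein of the mitotic spindle, rose from 0.0497 FPKM in PMs to 3.28 FPKM in CD11b- (limma adjusted p = 0.012) and 8.09 FPKM in CD11b+ B cells (limma adjusted p = 0.00080). Prg4, the lubricating proteoglycan of joints and serous surfaces, was at 2021 ± 389 FPKM in PMs, above all 7 members, and at 1.95 and 2.42 FPKM in CD11b- and CD11b+ B cells, -9.41 (limma adjusted p = 2.5e-07) and -9.19 (limma adjusted p = 3.9e-07).

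Among the metalloproteinases, the targets of Timp2, Mmp2 was at 0.804 ± 0.142 FPKM in PMs and near 0 in B cells (6 reads in each group), and Mmp14 was at 0.0789 FPKM in PMs and 0.396 and 0.512 FPKM in CD11b- and CD11b+ B cells. Mmp9 was at 9.29 ± 0.240 FPKM in PMs and at 0.0168 FPKM in CD11b- B cells (-3.34, limma adjusted p = 4.4e-05), while CD11b+ B cells had 2.99 ± 2.67 FPKM (SD, n = 3; against PMs -1.65, limma adjusted p = 0.0496). That last call was lost without any 1 of the PM libraries, CD11b+ replicate 1 or CD11b+ replicate 3 (adjusted p = 0.0502 to 0.12), and with edgeR (0.055), a pseudocount of 0.1 (0.074), no filter (0.13) and no trend (0.061). Adam19 and Mmp11 were higher in B cells: Adam19 was at 0.235 FPKM in PMs, 17.0 FPKM in CD11b- and 14.1 FPKM in CD11b+ B cells (limma adjusted p = 0.00012 and 4.7e-05). Mmp11 was at 0.688 ± 1.12, 7.56 ± 4.22 and 3.56 ± 1.24 FPKM in PMs, CD11b- and CD11b+ B cells (limma adjusted p = 0.0097 and 0.037), and the CD11b+ call was lost without PM replicate 1 or 2 or without any 1 of the CD11b+ libraries (adjusted p = 0.083 to 0.13). That call was also lost with no filter (adjusted p = 0.094), median-ratio scaling (0.097), quantile normalization (0.14), edgeR (0.32) and DESeq2 (0.23), and the CD11b- call with edgeR (0.12).

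Thbs1 is an activator of latent TGF-beta, and several of its partners were high in PMs. Ltbp1, which anchors latent TGF-beta to matrix, was at 100.1 ± 10.7 FPKM in PMs and at 0.145 and 0.110 FPKM in CD11b- and CD11b+ B cells (-6.46, limma adjusted p = 5.5e-07, and -6.50, limma adjusted p = 6.7e-07). Tgfb2 was at 73.0 FPKM in PMs and 0.132 and 0.0990 FPKM in CD11b- and CD11b+ B cells (limma adjusted p = 1.3e-06 and 1.4e-06), and Tgfbi, a matrix protein induced by TGF-beta, at 203 FPKM in PMs and 0.447 ± 0.248 and 3.81 ± 1.48 FPKM in CD11b- and CD11b+ B cells (limma adjusted p = 7.0e-07 and 4.4e-06). Tgfb1 was higher in B cells, at 8.88 FPKM (CD11b-, 1.22, limma adjusted p = 0.018) and 7.71 FPKM (CD11b+, 1.06, limma adjusted p = 0.031) against 3.29 FPKM in PMs, but not with median-ratio scaling (adjusted p = 0.081 and 0.14), quantile normalization (0.075 and 0.15) or edgeR (0.066 and 0.14), and for CD11b+ B cells also not with DESeq2 (0.097) or without the filter (0.055). Without single libraries it missed the threshold too, for CD11b- B cells without CD11b- replicate 2 or 3 (adjusted p = 0.079 and 0.071), and for CD11b+ B cells without PM replicate 2 or any 1 of the CD11b+ libraries (adjusted p = 0.068 to 0.091).

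The partners of Fcna in the lectin pathway were near 0 in every group: the proteases Masp1 and Masp2 had 2 and 1 reads in PMs and at most 58 reads in a B-cell group. Fitted against PMs for CD11b- and CD11b+ B cells were 7 and 6 relatives, 21 and 21 receptors, 19 and 18 metalloproteinases, and 12 and 15 structural genes. The other lists had 6 and 6 proteoglycans, 13 and 15 cross-linking, 13 and 13 TGF-beta, and 3 and 1 lectin complement genes fitted. Over all fitted genes, 11.0% and 8.78% were lower and 25.8% and 21.5% higher. By list, counts of lower genes against PMs were 4 relatives, 10 receptors, 6 metalloproteinases, 2 structural genes, 3 proteoglycans and 1 lectin complement gene in both B-cell groups. The cross-linking list had 8 lower genes in CD11b- and 7 in CD11b+ B cells, and the TGF-beta list 7 in both. Higher genes numbered 4 and 3 receptors, 3 and 2 metalloproteinases, 1 and 1 structural genes, 0 and 1 proteoglycans, and 2 and 1 TGF-beta genes in CD11b- and CD11b+ B cells, with none in the other 3 lists. The 1 proteoglycan was Prg2, a granule protein of eosinophils, which had no read in PMs and 3.94, 3.60 and 13.7 FPKM in the CD11b+ libraries (limma adjusted p = 0.0033).

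Between CD11b+ and CD11b- B cells, none of the 83 fitted genes of the lists passed limma's adjusted p of 0.05, and 12 had an unadjusted p under 0.05 (7.68% of all fitted genes had). On the recovered reads edgeR called 1 of the 75 list genes it tested higher (Mmp9), against 0.269% of all genes it tested. Of the 129 list genes fitted with DESeq2, it called 7 higher (Col5a1, Mmp8, Mmp9, Nid1, Sdc3, Stab1 and Tgfbi) and 1 lower (Tgfbr2). Over all genes with an adjusted p, DESeq2 called 1.89% higher and 0.369% lower. The median difference of the lists was 0.07, against 0.03 over all genes, and 13 list genes had every CD11b+ library above every CD11b- library (8.63% of all fitted genes) and 7 the reverse (6.32% of all fitted genes).

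Leaving out the members themselves, the genes most like each member over the 9 libraries, by the Euclidean distance between their log2(FPKM + 1) values centred on each gene's mean among 12486 non-member genes, were other genes high in PMs and low in B cells. Among these, C4b, a complement component, was nearest to Fn1 (0.55), Ecm1 (0.68) and Fcna (0.71). Ptgs1 was nearest to Pmp22 (0.32) and Timp2 (0.88), Serpinb2 to Thbs1 (0.36) and Timd4 to Emilin2 (0.61). Next came Lyz1 for Ecm1 (0.85) and Fn1 (0.83), Ms4a8a for Thbs1 (0.40) and Timp2 (0.94), Trf for Fcna (0.88), Ednrb for Emilin2 (0.91) and F10 for Pmp22 (0.44). Ecm1 and Fn1 lay nearer to each other (0.50) than either lay to C4b. In the authors' clusters of their second table, Thbs1, Ecm1, Emilin2, Fcna and Pmp22 shared a cluster of 174 genes, while Fn1 was in a cluster of 204 and Timp2 in a cluster of 429 genes.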

How the data were processed

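RNA of the 9 libraries was made into full-length cDNA libraries with a SMART-seq HT kit and sequenced as read pairs of 150 nt. The submitters' processing notes name Trim Galore 0.4.4, Trimmomatic 0.36, cutadapt 1.16, STAR 2.7.2b, featureCounts 1.6.1 and DESeq2 1.20.0, and both GRCm38 and GRCm39; which annotation was used they do not say. The authors deposited FPKM for 55322 genes, that is reads divided by exon length and by the reads on genes. The second table that the authors deposited holds, as a normalized signal, counts divided by a size factor for 11063 genes chosen at a p-value of 0.05 by a test not named there; it was used for its clusters and to check the reads. Positions in the tables differ from GRCm38, so those printed are from GENCODE M21 by identifier. Whole reads, recovered from FPKM within 0.05 of a read for 100% of values, equalled those of the second table and gave the depth, 18014658 to 35251215 reads on genes; intervals and floors (3 reads over a group) cover counting error only.

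Each comparison was fitted in R 4.3.3 with limma 3.58.1 (lmFit and a two-sided eBayes test with trend) on the log2(FPKM + 1) values of its 6 libraries. Genes entered if their mean FPKM reached 0.05, p-values were adjusted over all of them (Benjamini-Hochberg) and called at 0.05, and the fits were tested on simulated data. Alternatives were a pseudocount of 0.1, no filter, a mean FPKM of at least 1, all 9 libraries in one fit, replicate blocks, median-ratio and quantile rescaling, no trend, edgeR 4.0.16 and DESeq2 1.42.0 on the recovered reads, and leaving out each library. The members and lists were chosen with earlier results of these data known. Genes named besides the members are their relatives, preset receptors, proteases and Tgfb1, per comparison and direction the 5 largest called changes without overlap and with a mean FPKM of at least 1, and the 2 nearest genes per member; genes called by edgeR or DESeq2 alone, and the marker genes given with values, were named after their values were seen. The T and NK cell list summed to at most 2.30 FPKM in any library, the plasma cell list to 85.2 to 590.3 FPKM and the erythroid list to at most 49.2 FPKM.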

Additional observations from a re-analysis of the deposited data

How the results depend on the processing

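Counts of members called were the same in the alternatives run: 0 between the B-cell groups and 7 lower in both comparisons with PMs, also with the replicate block; at a mean FPKM of at least 1, 3 members were tested between the B-cell groups. The sign was checked for 63 differences of members in each comparison, which cover only part of the alternatives. Of these, 1 changed sign between the B-cell groups (Thbs1, to 0.01 without 1 library) and 0 against PMs. The count of members whose B-cell libraries did not overlap was 2, and 2 to 5 with each library left out, a check chosen after seeing the data; 5 was without CD11b- replicate 3. The share over all fitted genes was 8.63%, and 12.5 to 15.96% with each library left out.

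Between the B-cell groups, list genes called higher numbered 0 with limma, 1 with all 9 libraries in one fit (Tgfbi), 1 with edgeR and 7 with DESeq2, and DESeq2 called 1 lower. Against PMs, list genes called higher in CD11b+ B cells fell from 8 to 5 with median-ratio scaling and 5 with quantile normalization, and were 5 to 10 with each library left out, with 5 without PM replicate 2, CD11b+ replicate 1 or CD11b+ replicate 2. In CD11b- B cells they fell from 10 to 5 with median-ratio scaling, 6 with quantile normalization and 6 with edgeR, and were 6 to 10 with each library left out, with 6 without CD11b- replicate 2 or 3. Over all genes, calls between the B-cell groups ranged from 0 (replicate block by description number) to 328 higher and 64 lower (DESeq2), against 15 and 0. They were 34 higher and 3 lower with a pseudocount of 0.1, and 31 higher and 5 lower with all 9 libraries. Only higher calls were made without a filter (2), at a mean FPKM of at least 1 (31), with quantile normalization (9) and with edgeR (42). The same held with each library left out (3 to 40). Genes higher in CD11b+ B cells, against PMs, numbered 4760, and 2922 with median-ratio scaling, 2706 with quantile normalization, 2850 with edgeR and 3152 without CD11b+ replicate 2; lower genes numbered 1940, and 3404 with DESeq2. For CD11b- B cells the higher counts were 5404, 3411, 3415 and 3200 in the same order, and the lower counts 2306 and 4014 with DESeq2. The cause of these changes was not tested.

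Libraries with the same title number were not alike throughout. Their deviations correlated at 0.20, -0.01 and 0.17 between the B-cell groups and at -0.11 to 0.06 against PMs. The sample descriptions number the CD11b- libraries N1, N3 and N5 and the CD11b+ libraries P1, P2 and P5. The B-cell pairs at 0.20 and 0.17 shared a description number, and the pair at -0.01 did not. Whether such pairs came from the same mice is not given. With the replicate block by title number, 16 genes were higher between the B-cell groups, against 15 without the block, 4111 and 1743 were higher and lower in CD11b+ B cells against PMs, and 4948 and 2177 in CD11b- B cells; of the genes named, Cd47 in CD11b+ (limma adjusted p = 0.058) and Itgb3 in CD11b- B cells (0.074) then missed the threshold against PMs; CD11b+ replicate 2 correlated best with CD11b- replicate 1. Depth limits the B-cell levels of Pmp22 (25 and 53 reads) and Thbs1 (138 and 114 reads) most.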

Other observations

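Other marker lists are given as values. The erythroid list (6 genes) summed to 38.9 to 49.2 FPKM in CD11b+ and 2.01 to 25.5 FPKM in CD11b- libraries, with 3 genes not overlapping and none passing limma's adjusted p of 0.05. The plasma cell list (6 genes) summed to 203 to 590.3 FPKM in CD11b+ and 85.2 to 149.6 FPKM in CD11b- libraries, with 2 genes not overlapping and none past the threshold. Of the neutrophil list, S100a8, S100a9 and Retnlg were called higher in CD11b+ B cells.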
